A study of Mus musculus with 18 samples.

Results

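The genes examined are 6 matrix metalloproteinases (Mmp2, Mmp3, Mmp9, Mmp10, Mmp13 and Mmp14) and 3 of their tissue inhibitors (Timp1, Timp2 and Timp3). They were taken by gene symbol, and 9 of 9 were found among the 18397 genes of the deposited expression table. The RNA came from 18 sequencing libraries in 6 groups of 3, all labelled as cells of RAW264.7, a macrophage-like line from a mouse tumor induced by Abelson virus. The groups were Stiff+mito and Soft+mito, Stiff-TW and Soft-TW, and the corresponding matrices with neither, Stiff and Soft. What mito and TW stand for and how stiff each matrix was are not in the labels, and the title of the series speaks of mitochondria passed between cells in a way related to stiffness. No genotype or agent other than these labels is given, and no label says that the 3 libraries of a group came from separate cultures, so the p-values measure only the spread between libraries, which may be technical.

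Matrix metalloproteinases are zinc endopeptidases that are made as inactive proenzymes and, once a prodomain is cut away, degrade collagens, laminins, proteoglycans and other proteins outside the cell. Most are secreted, while Mmp14 is held in the plasma membrane. Timp proteins bind the active site of these enzymes and block it, and Timp2 also takes part in the activation of pro-Mmp2 by Mmp14 at the cell surface. Macrophages and their osteoclast relatives are known sources of Mmp9 in particular.

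Mmp13, Mmp3 and Mmp10 lie within 237729 bases of one another on chromosome 9, in a cluster that holds 10 Mmp genes in the RefSeq annotation of GRCm38.p6. RefSeq promoter sequence was at hand for 7 of the 9 genes, that is for all but Mmp2 and Mmp9. The 250 bases before each annotated start were searched on both strands for 4 short motifs, and the same was done for 32851 promoters of that length. The letters TGANTCA, which the factor AP-1 is known to bind, stood in 6.75% of all these promoters. The letters TATAAA, known from the TATA box that places the start of transcription, stood in 12.4% of them. The letters AGGAAG, a core bound by Ets factors and known as PEA3 in this gene family, stood in 29.5% of them. The letters GGGCGG, the GC box bound by Sp1 and its relatives, stood in 32.7% of them. The 3 genes of the cluster each held 1 match to the AP-1 letters and 1 to the TATA letters, while Mmp14, Timp1, Timp2 and Timp3 held 0 of either and 2, 1, 1 and 1 GC boxes. The 130 bases before the start of the 3 clustered genes are printed because these neighbours share both motifs and yet differed in how they moved across the groups. They are on the plus strand of GRCm38.p6, 5′ to 3′, with the AP-1 and TATA letters in capitals.
Mmp13, chr9:7272384-7272513: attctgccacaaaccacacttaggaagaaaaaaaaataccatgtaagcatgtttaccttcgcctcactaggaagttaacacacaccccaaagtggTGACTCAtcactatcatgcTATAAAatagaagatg
Mmp3, chr9:7445692-7445821: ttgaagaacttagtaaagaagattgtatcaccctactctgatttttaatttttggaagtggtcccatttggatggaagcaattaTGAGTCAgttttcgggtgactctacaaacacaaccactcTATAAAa
Mmp10, chr9:7502212-7502341: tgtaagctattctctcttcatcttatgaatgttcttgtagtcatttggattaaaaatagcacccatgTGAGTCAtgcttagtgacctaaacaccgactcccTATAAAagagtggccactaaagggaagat
The AP-1 letters ended 29 bases before the start in Mmp13, 40 bases in Mmp3 and 57 bases in Mmp10. The TATA letters ended 11 bases before it in Mmp13, 2 bases in Mmp3 and 24 bases in Mmp10. These distances depend on where the start is annotated. The number of PEA3 matches differed, with 2 in Mmp13, 1 in Mmp3 and 0 in Mmp10. A match describes the letters in the window only.

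The 9 genes spanned a wide range of abundance, given as TPM (a transcript level scaled for gene length and for the total of a library). Timp2 was the most abundant, with a mean of 507 TPM over the 18 libraries and rank 288 among all genes in the table, and Mmp14 followed with 143 TPM. Timp3, Timp1, Mmp10 and Mmp2 had means of 78.1, 70.5, 31.7 and 28.6 TPM, and Mmp9, Mmp13 and Mmp3 had 8.28, 6.69 and 2.67 TPM. Mmp3 rested on few reads, between 19 and 72 estimated counts per library. All 9 passed the filter on low counts, and 12245 genes were tested. The gene positions on GRCm38.p6 are chr8:92827290-92853421 for Mmp2 (gene ID 17390), chr9:7445822-7455975 for Mmp3 (17392), chr2:164940326-164955850 for Mmp9 (17395), chr9:7502342-7510242 for Mmp10 (17384), chr9:7272514-7283333 for Mmp13 (17386) and chr14:54431598-54442456 for Mmp14 (17387). Those of the inhibitors are chrX:20870166-20874737 for Timp1 (21857), chr11:118301061-118355411 for Timp2 (21858) and chr10:86300412-86349505 for Timp3 (21859).

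The 9 genes differed in how far they moved across the 6 groups. The highest group mean exceeded the lowest by 10.3-fold for Mmp9, 4.12-fold for Mmp10, 3.14-fold for Timp3, 2.31-fold for Mmp13, 1.92-fold for Mmp3 and 1.61-fold for Mmp2. For Timp2, Timp1 and Mmp14 that ratio was 1.23, 1.21 and 1.15. Total counts per library ran from 16054637 to 16887244 estimated counts.

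**Figure D1:**
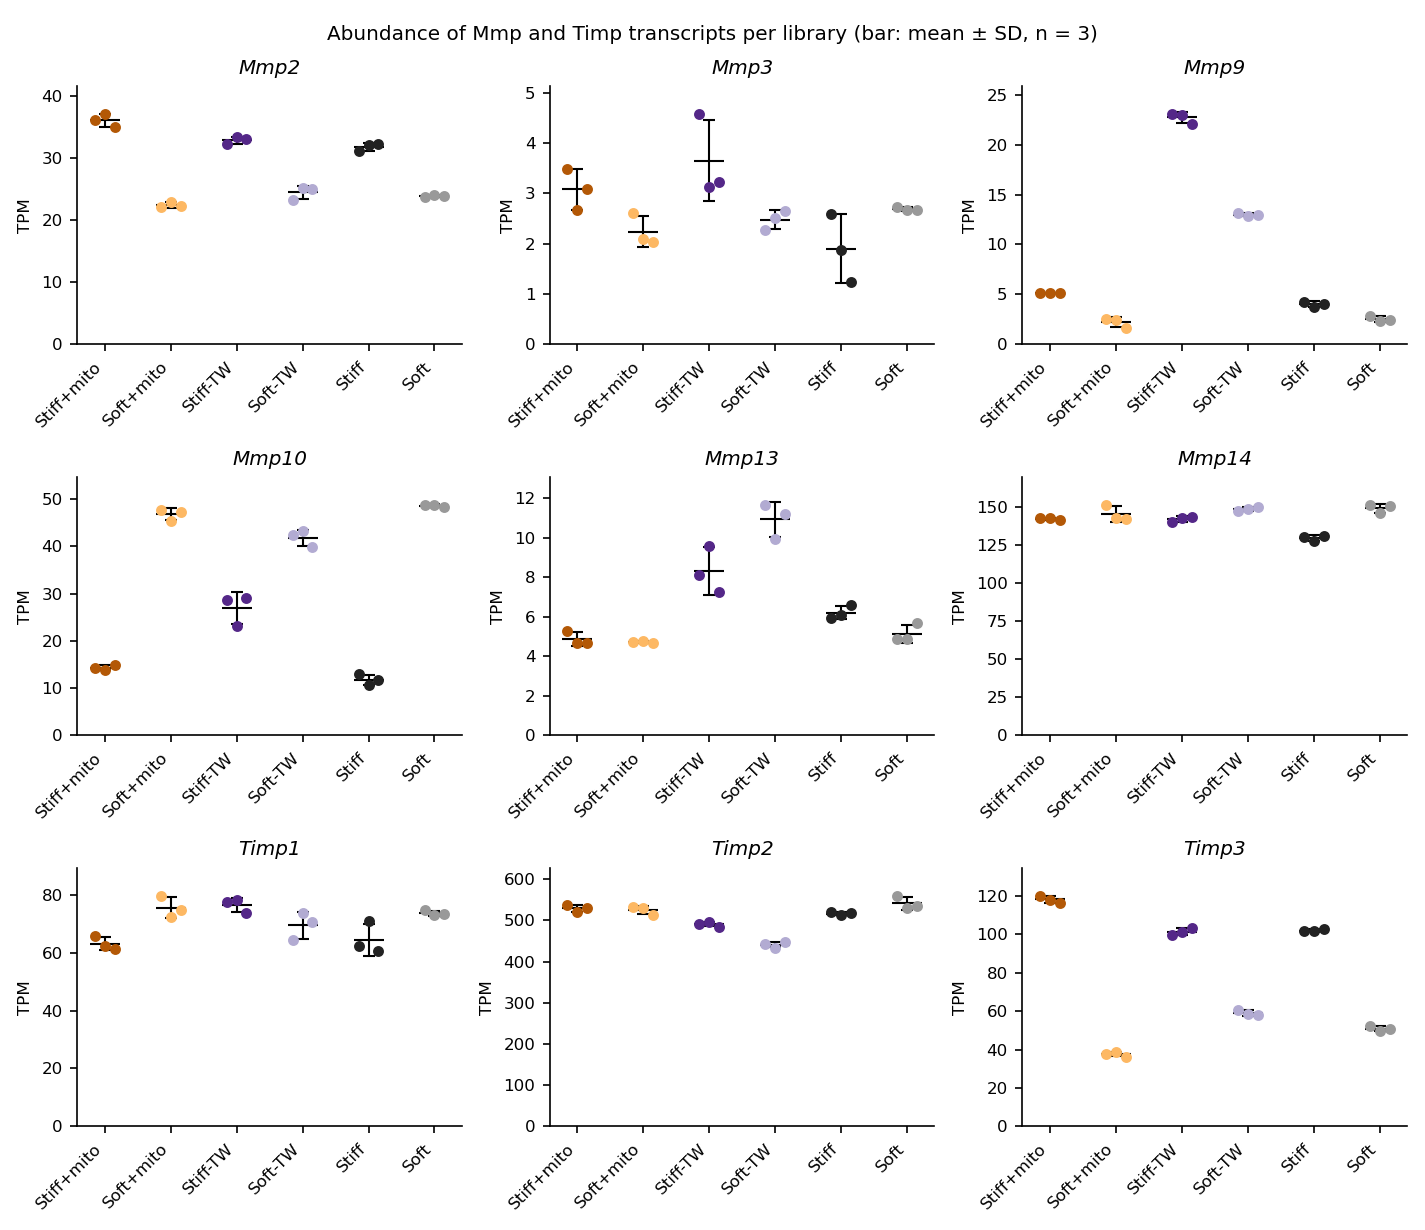
Level of the 9 genes in TPM (y axis) in each of the 18 libraries (points), by group on the x axis. Mmp9 is highest in Stiff-TW (22.1 to 23.1 TPM) and Mmp10 lowest in Stiff (10.7 to 12.9 TPM), and Timp2 lies between 434 and 560 TPM in every library.

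The marker check did not bear out the label for most of the macrophage markers. Of 10 macrophage markers, Cd14 and Lyz2 were the only 2 with a mean of at least 10 TPM, and Adgre1, Fcgr1, Itgam, Mrc1 and Ptprc stayed under 1 TPM in all libraries. Csf1r, Tyrobp and Cd68 averaged 0.258, 0.719 and 8.34 TPM. Of the other lists, keratins Krt8 and Krt18 and the fibroblast genes Col1a2 and Pdgfra were abundant, while Epcam, Cdh1, Krt14, Krt19 and Cldn4 stayed under 1 TPM, so the cells are called by their label only. Fewer cells of a type and less RNA per cell cannot be told apart in these bulk libraries.

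Among the gelatinases, Mmp9, which cleaves denatured and basement-membrane collagen, had the widest range. It had 5.12, 5.17 and 5.17 TPM in Stiff+mito, and 2.57, 2.46 and 1.61 TPM in Soft+mito. It had 23.1, 23.0 and 22.1 TPM in Stiff-TW and 13.2, 12.9 and 12.9 TPM in Soft-TW. Stiff libraries had 4.28, 3.74 and 4.05 TPM and Soft libraries 2.87, 2.36 and 2.41 TPM. Both TW groups lay above all other libraries, the stiff matrix lay above the soft one within mito, within TW and with neither, and of the neighbours in order only Soft+mito and Soft overlapped. Stiff-TW was 5.81-fold above Stiff (log2 fold change 2.54 ± 0.08, SE; edgeR quasi-likelihood test, adjusted p = 2.25e-55) and Soft-TW was 5.51-fold above Soft (2.46 ± 0.09, adjusted p = 7.62e-46). Stiff+mito was higher than Stiff by 0.36 ± 0.10 (adjusted p = 0.00335) and Soft+mito and Soft did not pass (-0.11, adjusted p = 0.61).

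Macrophage markers in sum were higher with TW on both matrices, as Mmp9 was. With mito the sum was also higher on both matrices, while Mmp9 was called higher on the stiff matrix only. These markers in sum were lower on the stiff matrix, unlike Mmp9. Their summed level was 40.6 ± 1.5 TPM in Stiff+mito and 50.1 ± 2.4 TPM in Soft+mito (SD, n = 3 each). It was 53.6 ± 0.7 TPM in Stiff-TW and 79.6 ± 0.4 TPM in Soft-TW, against 32.6 ± 2.2 TPM in Stiff and 39.6 ± 0.1 TPM in Soft. The marker sum was highest in Soft-TW, where Mmp9 was lower than in Stiff-TW. Most of the sum was Cd14, Lyz2 and Cd68, at 30.2, 30.2 and 14.4 TPM in Soft-TW against 27.6, 5.59 and 5.9 TPM in Soft. In Stiff-TW they were at 27.1, 13.4 and 11.8 TPM against 20.8, 7.39 and 4.07 TPM in Stiff. Lyz2 did not follow the sum across the matrices with neither addition (7.39 ± 1.39 TPM in Stiff against 5.59 ± 0.88 TPM in Soft). Within mito it did not either (9.76 ± 1.73 TPM in Stiff+mito against 9.41 ± 1.52 TPM in Soft+mito). Within TW, Lyz2 was lower on the stiff matrix (13.4 against 30.2 TPM). The part of the macrophage markers in the Mmp9 result was not tested. The osteoclast markers summed to 3.54 to 5.3 TPM over the group means. The neutrophil list, of which 5 of 7 genes were in the table, summed to 36.8 ± 2.5 TPM in Stiff-TW and 51.6 ± 13.0 TPM in Soft-TW, against 29.2 ± 8.7 TPM in Stiff and 21.2 ± 4.0 TPM in Soft. Nearly all of it was S100a8, and the other 4 stayed under 1 TPM. Its part was not tested.

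**Figure D2:**
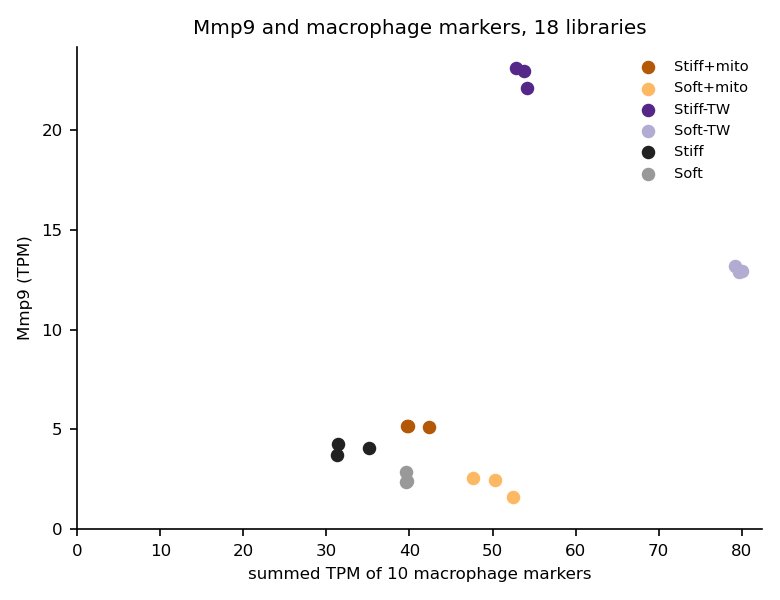
Mmp9 level (y axis, TPM) against the summed TPM of 10 macrophage markers (x axis) in the 18 libraries, colored by group. Stiff-TW libraries have Mmp9 of 22.1 to 23.1 TPM at marker sums of 52.8 to 54.2 TPM, and Soft-TW libraries have 12.9 to 13.2 TPM at 79.1 to 80.0 TPM.

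Mmp2, the other gelatinase, followed the matrix more than the additions. It had 36.1, 37.1 and 34.9 TPM in Stiff+mito against 22.1, 23.0 and 22.2 TPM in Soft+mito, and 32.2, 33.4 and 33.0 TPM in Stiff-TW against 23.3, 25.2 and 25.0 TPM in Soft-TW. It had 31.1, 32.1 and 32.2 TPM in Stiff against 23.78, 24.01 and 23.92 TPM in Soft. All 9 libraries on the stiff matrix lay above all 9 on the soft matrix. Mmp2 was higher on the stiff matrix within mito (0.68 ± 0.04, adjusted p = 9.24e-28), within TW (0.44 ± 0.04, adjusted p = 4.25e-16) and with neither (0.50 ± 0.04, adjusted p = 3.01e-18). The summed fibroblast markers also were higher on the stiff matrix, at 103 ± 3.4 TPM in Stiff+mito against 62.3 ± 1.9 TPM in Soft+mito, 147 ± 1.8 TPM in Stiff-TW against 103 ± 1.0 TPM in Soft-TW, and 85.8 ± 0.6 TPM in Stiff against 69.2 ± 1.5 TPM in Soft. Col1a2 rose in each setting (49.1 against 20.6, 59.7 against 28.1 and 40.4 against 24.4 TPM, in the same order). Pdgfra, the most abundant of the list on average, did not follow the sum. It was at 32.1 against 31.5 TPM within mito, 67.3 against 62.3 TPM within TW, and lower in Stiff than in Soft (25.9 against 32.3 TPM). Thy1, Fap, Lum and Postn were under 1 TPM in every library, and the part of these fibroblast markers in the Mmp2 and Timp3 results was not tested.

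The stromelysins Mmp10 and Mmp3 cleave proteoglycans, laminin and other proenzymes of the family. Mmp10 was low on the stiff matrix. It had 14.2, 13.8 and 14.9 TPM in Stiff+mito against 47.7, 45.4 and 47.3 TPM in Soft+mito. It had 28.7, 23.2 and 29.1 TPM in Stiff-TW against 42.4, 43.2 and 39.9 TPM in Soft-TW. It had 12.9, 10.7 and 11.7 TPM in Stiff against 48.8, 48.7 and 48.3 TPM in Soft. The 6 groups did not overlap with their neighbours in order. Mmp10 was 3.93-fold lower in Stiff than in Soft (log2 fold change -1.97 ± 0.07, adjusted p = 2.35e-48). The difference was 3.3-fold within mito (-1.72 ± 0.06, adjusted p = 1.47e-45) and 1.53-fold within TW (-0.61 ± 0.06, adjusted p = 1.03e-16). In Stiff-TW it was 2.38-fold above Stiff (1.254 ± 0.077, adjusted p = 7.06e-29). Soft-TW and Soft did not pass (-0.11, adjusted p = 0.0609), although this difference was called without Soft-TW replicate 2 (-0.15, adjusted p = 0.0226) and when libraries were scaled by their totals (-0.165, adjusted p = 0.00382). It was also called without the filter on low counts, with only the groups compared and with limma on log2(TPM + 0.5). The epithelial markers, nearly all Krt8 and Krt18, were lower on the stiff matrix as well, at 747 ± 12.9 TPM in Stiff+mito against 1040 ± 6.6 TPM in Soft+mito, 675 ± 6.4 TPM in Stiff-TW against 775 ± 9.8 TPM in Soft-TW, and 703 ± 9.2 TPM in Stiff against 1010 ± 15.8 TPM in Soft. Their part in the Mmp10 result was not tested.

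Mmp3 levels were low and noisy, at 3.08 ± 0.41 TPM in Stiff+mito, 2.24 ± 0.31 TPM in Soft+mito, 3.65 ± 0.81 TPM in Stiff-TW, 2.47 ± 0.19 TPM in Soft-TW, 1.9 ± 0.68 TPM in Stiff and 2.69 ± 0.04 TPM in Soft (SD, n = 3 each). Libraries of Stiff-TW, Stiff+mito and Soft overlapped in that order, as did those of Soft-TW, Soft+mito and Stiff. It rose in Stiff-TW against Stiff (0.99 ± 0.20, adjusted p = 6.36e-06), a call kept without any 1 library. Against Soft, Stiff did not pass (-0.42 ± 0.21, adjusted p = 0.0877), but passed without Stiff replicate 1 (-0.71, adjusted p = 0.0123). The call of Stiff+mito over Stiff (0.70, adjusted p = 0.00482) was lost without Stiff replicate 3 (0.46, adjusted p = 0.101). The call of Stiff-TW over Soft-TW (0.58, adjusted p = 0.00585) was lost without Stiff-TW replicate 1 (0.38, adjusted p = 0.129).

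Mmp13, a collagenase that cuts fibrillar collagen, rose with TW on both matrices. It had 5.27, 4.67 and 4.65 TPM in Stiff+mito and 4.71, 4.75 and 4.67 TPM in Soft+mito. It had 8.09, 9.60 and 7.23 TPM in Stiff-TW and 11.7, 9.94 and 11.2 TPM in Soft-TW, against 5.96, 6.09 and 6.58 TPM in Stiff and 4.86, 4.87 and 5.66 TPM in Soft. Soft-TW lay above Stiff-TW, and the other 4 groups lay below both. The fold was 2.3 in Soft-TW over Soft (log2 1.20 ± 0.09, adjusted p = 5.91e-22) and 1.38 in Stiff-TW over Stiff (0.46 ± 0.09, adjusted p = 7.68e-06). Stiff+mito was lower than Stiff (-0.35 ± 0.11, adjusted p = 0.0058), while Stiff was higher than Soft by 0.36 ± 0.10 (adjusted p = 0.00243).

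Mmp14, the membrane-bound activator of pro-Mmp2, varied little. It averaged 142 ± 0.6 TPM in Stiff+mito, 146 ± 5.2 TPM in Soft+mito, 142 ± 1.9 TPM in Stiff-TW, 149 ± 1.4 TPM in Soft-TW, 130 ± 1.8 TPM in Stiff and 149 ± 2.8 TPM in Soft (SD, n = 3 each). Stiff stood below all the other groups, which each overlapped with the next in order. Mmp14 was lower in Stiff than in Soft by a log2 fold change of -0.11 ± 0.02 (adjusted p = 9.08e-06). It was higher in Stiff+mito (0.14 ± 0.02, adjusted p = 5.24e-07) and Stiff-TW (0.17 ± 0.02, adjusted p = 4.87e-11) against Stiff. In comparisons with Soft, TPM ratios lay below the fitted changes (median over all genes -0.107 for Soft-TW, -0.092 for Soft+mito and -0.081 for Stiff), and the direction of small changes depends on that scale. Mmp14 was called higher in Soft-TW than in Soft (0.11, adjusted p = 2.61e-05) and in Soft+mito than in Soft (0.06, adjusted p = 0.0347). With limma on log2(TPM + 0.5) both values were below 0, at -0.006 and -0.0358. The second call was also lost without Soft replicate 1, Soft replicate 2 or Soft+mito replicate 1 (0.04 to 0.06, adjusted p = 0.0754 to 0.218). With library totals and with only the groups compared it was lost too (adjusted p = 0.317 and 0.163). The same held without the filter on low counts (adjusted p = 0.0738) and with DESeq2 (adjusted p = 0.067).

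Of the inhibitors, Timp3, which is bound to the extracellular matrix and blocks membrane proteases as well, changed most. It had 120, 118 and 117 TPM in Stiff+mito against 37.9, 38.7 and 36.4 TPM in Soft+mito. It had 99.5, 101 and 103 TPM in Stiff-TW against 60.7, 58.4 and 57.7 TPM in Soft-TW. It had 102, 102 and 103 TPM in Stiff against 52.2, 49.5 and 50.5 TPM in Soft. All libraries of the stiff matrix lay above those of the soft matrix. Timp3 was 2.14-fold higher in Stiff than in Soft (log2 1.10 ± 0.03, adjusted p = 5.54e-65), 3.13-fold within mito (1.65 ± 0.03, adjusted p = 2.61e-81) and 1.74-fold within TW (0.80 ± 0.02, adjusted p = 4.9e-53). Soft+mito was lower than Soft (-0.33 ± 0.03, adjusted p = 3.9e-18), whereas Stiff+mito was higher than Stiff (0.21 ± 0.02, adjusted p = 1.05e-13).

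Timp2 was the most abundant inhibitor and moved little, averaging 529 ± 8.3 TPM in Stiff+mito, 524 ± 10.1 TPM in Soft+mito, 491 ± 5.8 TPM in Stiff-TW, 441 ± 7.1 TPM in Soft-TW, 516 ± 3.4 TPM in Stiff and 542 ± 15.7 TPM in Soft (SD, n = 3 each). Soft-TW stood below all other groups, and fell against Soft by 0.19 ± 0.02 on the log2 scale (adjusted p = 5.39e-16). With limma on log2(TPM + 0.5) this value was -0.30, that of Timp3 in Soft-TW against Soft was 0.21 (0.33 in the edgeR fit) and that of Mmp14 in Stiff against Soft was -0.20. Timp1, a broad inhibitor of secreted family members, was at 63.1 ± 2.3 TPM in Stiff+mito, 75.6 ± 3.7 TPM in Soft+mito, 76.5 ± 2.5 TPM in Stiff-TW, 69.5 ± 4.7 TPM in Soft-TW, 64.5 ± 5.6 TPM in Stiff and 73.6 ± 0.9 TPM in Soft. Every group overlapped with its neighbours in order of mean. Timp1 rose in Stiff-TW against Stiff (0.35 ± 0.06, adjusted p = 2.78e-07). It was lower in Stiff than in Soft by -0.15 ± 0.06 (adjusted p = 0.0362), a call lost without Soft replicate 2, Soft replicate 3, Stiff replicate 1 or Stiff replicate 3, with values between -0.14 and -0.11 (adjusted p = 0.0794 to 0.204), and with DESeq2 (adjusted p = 0.0765).

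For Stiff against Soft, the 9 genes gave 4 higher and 3 lower calls, beside 29.1% and 24.7% of all tested genes, and 2 were not called. The median log2 fold change was 0.019 for the 9 and 0.015 for all genes. The higher ones were Mmp2, Mmp9, Mmp13 and Timp3. Within mito (Stiff+mito against Soft+mito) 4 were higher and 2 lower (32.7% and 30.8% of all genes), and within TW (Stiff-TW against Soft-TW) 6 were higher and 2 lower (27.6% and 26.7% of all genes). The Mmp3 call within mito (0.45, adjusted p = 0.0408) was lost without Soft+mito replicate 2 or 3 or Stiff+mito replicate 1 or 3 (0.36 to 0.43, adjusted p = 0.0852 to 0.159), with DESeq2 (adjusted p = 0.113), without the filter (adjusted p = 0.0545) and with limma on TPM (adjusted p = 0.052). The Timp1 call within TW (0.18, adjusted p = 0.00693) was lost without Soft-TW replicate 1 (0.12, adjusted p = 0.118). Mmp14 did not pass within TW (-0.05, adjusted p = 0.0727), but was called lower without Stiff-TW replicate 3 (adjusted p = 0.0249). It was also called lower with library totals (adjusted p = 0.00179), only the groups compared (adjusted p = 0.0325), DESeq2 (adjusted p = 0.0477) and limma on TPM (adjusted p = 0.0388). The medians were 0.038 for the 9 and 0.014 for all genes within mito, and 0.182 and 0.002 within TW. The share of higher calls among all changed genes in Stiff against Soft was 54.1%, and 44.1% with libraries scaled by their totals or 35.2% with limma on TPM.

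**Figure D3:**
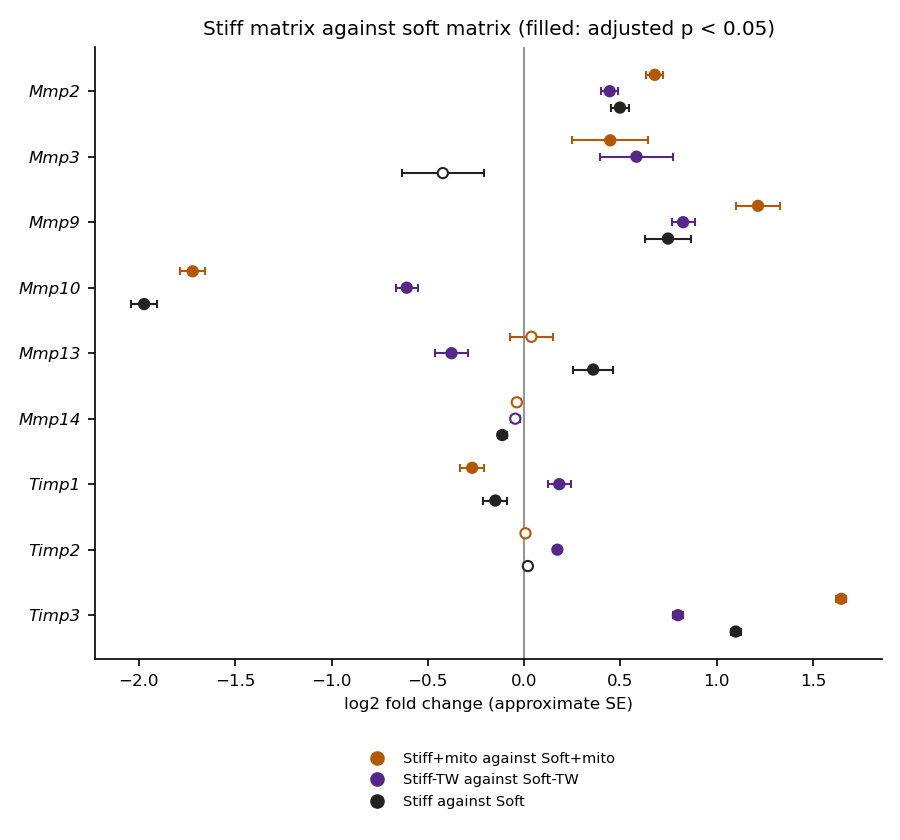
Log2 fold change of the stiff over the soft matrix for each gene, with SE bars, with mito, with TW and with neither (filled points have an adjusted p under 0.05). Timp3, Mmp2 and Mmp9 lie above 0 and Mmp10 below 0 in all 3 settings.

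For TW, 7 genes were higher and 0 lower in Stiff-TW against Stiff (35.5% and 34.1% of all genes), and 5 were higher and 1 lower in Soft-TW against Soft (28.9% and 28% of all genes). Timp2 did not pass in Stiff-TW against Stiff (-0.03, adjusted p = 0.109), but was called lower in some other settings. These were library totals (-0.08, adjusted p = 5.03e-05), only the groups compared (adjusted p = 0.023), DESeq2 (adjusted p = 0.0351) and limma on TPM (adjusted p = 0.00657). For mito, 6 were higher and 1 lower in Stiff+mito against Stiff (15.6% and 17.8% of all genes), and 2 were higher and 1 lower in Soft+mito against Soft (14.8% and 11.9% of all genes). The 2 higher genes in Soft+mito were Mmp14 and Timp2, whose TPM means were not above those in Soft (146 and 524 TPM in Soft+mito against 149 and 542 TPM in Soft). The Timp2 call (0.05, adjusted p = 0.0378) was lost without Soft replicate 2 or 3 or Soft+mito replicate 1 or 2 (0.04 to 0.05, adjusted p = 0.0537 to 0.131), with library totals (adjusted p = 0.453), without the filter (adjusted p = 0.0832) and with only the groups compared (adjusted p = 0.238), and it turned to -0.0472 with limma on TPM. The medians of the 9 and of all genes were 0.352 and 0.009 in Stiff-TW against Stiff, 0.105 and -0.004 in Soft-TW against Soft, 0.184 and 0.001 in Stiff+mito against Stiff, and 0.003 and 0.007 in Soft+mito against Soft. The share of higher calls among all changed genes depended on the scaling in the comparisons with Soft and in those with Stiff-TW. It was 55.5% in Soft+mito against Soft (38.3% with library totals, 12.5% with limma on TPM) and 50.8% in Soft-TW against Soft (38.6% and 28.8%). In Stiff-TW against Stiff it was 51.0% (44.4% and 43.8%), and in Stiff+mito against Stiff-TW 48.7% (57.9% and 58.0%). Stiff+mito against Stiff moved less, at 46.7% (46.9% and 44.5%). Comparisons with Soft share its 3 libraries, and those with Stiff share its 3. The Mmp2 call of Stiff-TW over Stiff (0.09, adjusted p = 0.0443) was lost when any of the 6 libraries was left out (0.07 to 0.10, adjusted p = 0.0507 to 0.159). The Mmp2 call of Soft-TW over Soft (0.14, adjusted p = 0.00576) was lost without Soft-TW replicate 2 (0.11, adjusted p = 0.0828), with library totals (0.09, adjusted p = 0.0939) and with limma on TPM (0.03, adjusted p = 0.463). The Mmp10 call of Stiff+mito over Stiff (0.29, adjusted p = 0.00646) was lost without Stiff replicate 2 (0.23, adjusted p = 0.0687). Set against TW on the same matrix, Soft+mito had 2 genes higher and 4 lower than Soft-TW (29.8% and 30% of all genes), and Stiff+mito had 3 higher and 4 lower than Stiff-TW (30.2% and 31.8% of all genes). Among these, the Mmp2 call against Soft-TW was lost without Soft-TW replicate 2 (-0.10, adjusted p = 0.083) and the Mmp10 call without Soft-TW replicate 3 (0.12, adjusted p = 0.0736). The Mmp2 call against Stiff-TW was lost without Stiff+mito replicate 2 (0.07, adjusted p = 0.19), without Stiff-TW replicate 1 (0.09, adjusted p = 0.0799) and with DESeq2 (adjusted p = 0.0823). The medians of the 9 were -0.142 and -0.293. Mmp9 was 5.94-fold lower in Soft+mito than in Soft-TW and 4.54-fold lower in Stiff+mito than in Stiff-TW.

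**Figure D4:**
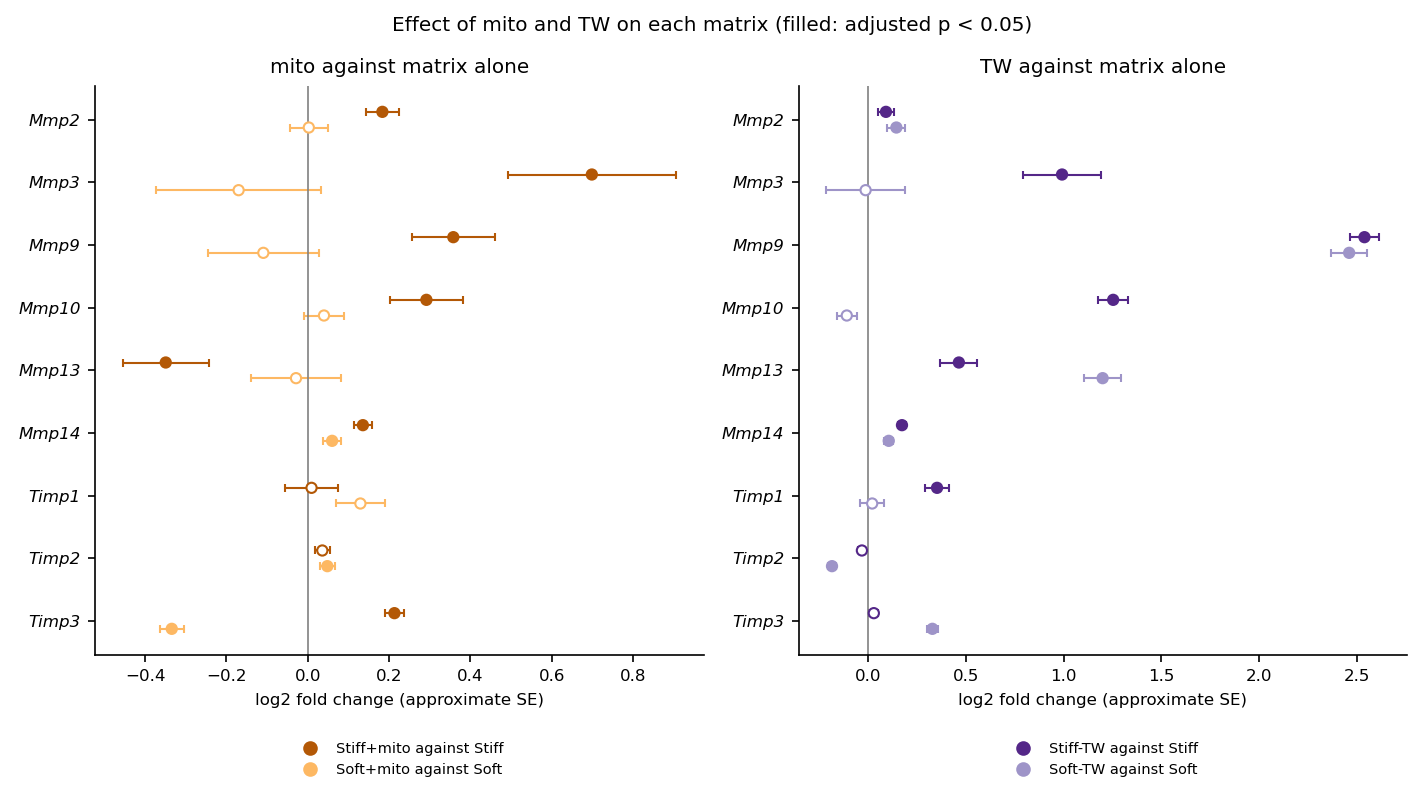
Log2 fold change of each gene with mito or TW over the same matrix with neither, with SE bars (filled points have an adjusted p under 0.05). Mmp9 lies at 2.54 for TW on the stiff matrix and 2.46 on the soft matrix, and Timp3 is below 0 for mito on the soft matrix and above 0 on the stiff matrix.

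Interaction tests asked whether an addition acted differently on the stiff and the soft matrix. For TW, 4 genes had a higher and 2 a lower effect on the stiff matrix (16.4% and 19.7% of all genes). The largest was Mmp10 (1.36 ± 0.09, adjusted p = 1.15e-24), followed by Mmp3 (1.01 ± 0.28, adjusted p = 0.00281), and Mmp13 went the other way (-0.74 ± 0.13, adjusted p = 2.97e-06). Mmp9 did not pass (0.08 ± 0.14, adjusted p = 0.7). The higher value of Timp2 (0.15 ± 0.03, adjusted p = 5.24e-07) was not a rise with TW. Timp2 was called lower in Soft-TW against Soft (-0.19, adjusted p = 5.39e-16) and not called in Stiff-TW against Stiff (-0.03, adjusted p = 0.109). For mito, 4 genes had a higher and 0 a lower effect on the stiff matrix (10.4% and 13.1% of all genes). Timp3 led (0.55 ± 0.04, adjusted p = 5.59e-24), and its call was kept without any 1 library. Those of Mmp2 (0.18, adjusted p = 0.0238), Mmp3 (0.87, adjusted p = 0.0195) and Mmp9 (0.47, adjusted p = 0.0344) were not. Mmp2 ran from 0.16 to 0.20 (adjusted p = 0.0181 to 0.0778), its call lost without Soft replicate 2, Soft replicate 3, Soft+mito replicate 1, Stiff replicate 1 or Stiff+mito replicate 2. Mmp3 ran from 0.63 to 1.16 (adjusted p = 0.00355 to 0.119), lost without Stiff replicate 3 or Stiff+mito replicate 1. Mmp9 ran from 0.29 to 0.58 (adjusted p = 0.0142 to 0.261), lost without Soft replicate 1, Soft+mito replicate 3, Stiff replicate 2 or 3, or Stiff+mito replicate 2 or 3. The medians of the 9 and of all genes were 0.181 and -0.005 for mito, and 0.078 and -0.007 for TW. The share of higher calls among all changed genes was 44.3% for mito (58.1% with library totals, 79.7% with limma on TPM) and 45.3% for TW (61.9% with limma on TPM).

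Summed over the members, the 6 Mmp genes came to 206 ± 1.3 TPM in Stiff+mito, 224 ± 6.3 TPM in Soft+mito, 237 ± 1.8 TPM in Stiff-TW, 241 ± 1.2 TPM in Soft-TW, 185 ± 2.8 TPM in Stiff and 232 ± 3.1 TPM in Soft (SD, n = 3 each). The 3 Timp genes came to 710 ± 10.9 TPM in Stiff+mito, 638 ± 12.7 TPM in Soft+mito, 669 ± 7.0 TPM in Stiff-TW, 570 ± 5.6 TPM in Soft-TW, 683 ± 2.1 TPM in Stiff and 666 ± 17.9 TPM in Soft. Timp2 held 73.4% to 82.2% of the Timp sum and Mmp14 60.1% to 70.0% of the Mmp sum over the group means. The ratio of summed Timp to summed Mmp transcripts was 3.45 ± 0.05 in Stiff+mito, 2.85 ± 0.05 in Soft+mito, 2.83 ± 0.05 in Stiff-TW, 2.36 ± 0.02 in Soft-TW, 3.69 ± 0.07 in Stiff and 2.87 ± 0.06 in Soft. Stiff stood above Soft, Stiff+mito above Soft+mito and Stiff-TW above Soft-TW in this ratio, with no overlap of libraries. The sums are transcript levels, not protein or enzyme activity.

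**Figure D5:**
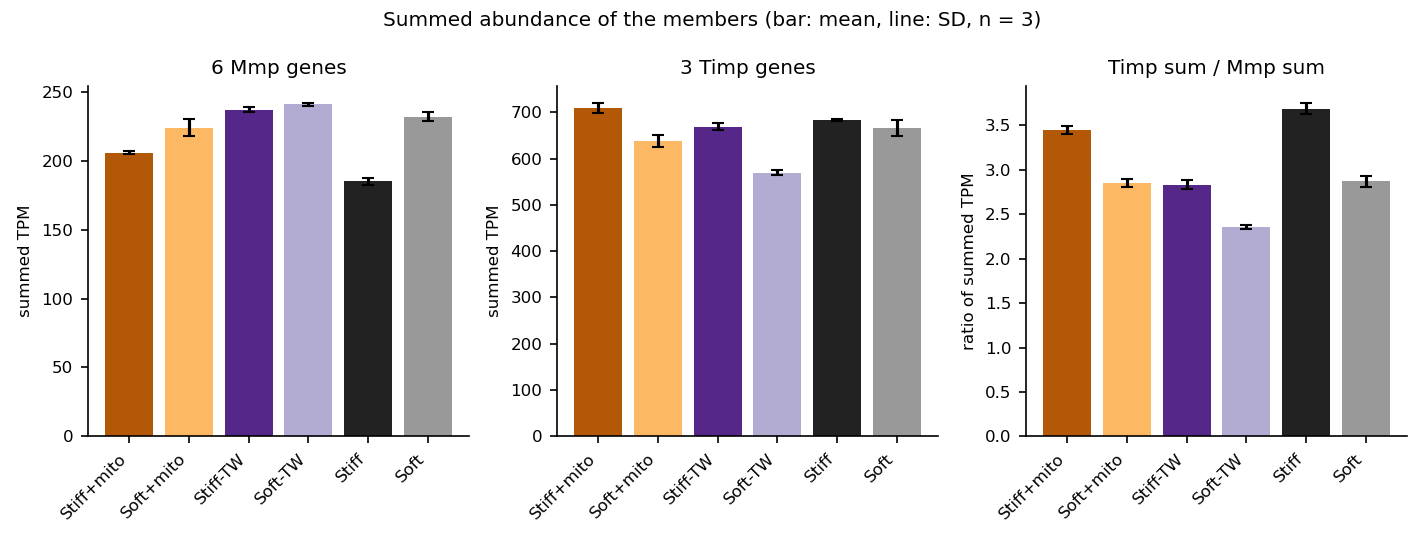
Summed TPM of the 6 Mmp genes and the 3 Timp genes, and their ratio, by group (bar is the mean and line the SD of 3 libraries). The ratio is highest in Stiff (3.69) and lowest in Soft-TW (2.36).

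Among the genes of the wider pathway, Mmp11 was the only other family member with at least 10 TPM on average (28.3 TPM), and 5 of the other 18 Mmp and Timp genes were tested. In Stiff against Soft, where 29.1% of all tested genes were higher and 24.7% lower, 3 of those 5 rose and 1 fell, and Mmp11 was higher by 0.32 ± 0.05 (adjusted p = 1.1e-07). Activators and surface partners showed 1 of 10 higher and 7 lower in Stiff against Soft, beside the same shares of all genes. Among them was Plaur, the urokinase receptor that concentrates plasmin formation at the surface, at 92.4 ± 2.2 TPM in Stiff against 162 ± 1.4 TPM in Soft (-0.75 ± 0.03, adjusted p = 3.31e-38). With TW, Bsg, a surface glycoprotein known to induce Mmp production, was at 2360 ± 40 TPM in Stiff-TW against 1370 ± 4.4 TPM in Stiff (0.85 ± 0.02, adjusted p = 2.83e-67). In Soft-TW it was at 2380 ± 35.4 TPM against 1480 ± 7.2 TPM in Soft (0.78 ± 0.02, adjusted p = 6.57e-64). Of these 10 partners, 6 were higher and 2 lower in Stiff-TW against Stiff (35.5% and 34.1% of all genes) and likewise in Soft-TW against Soft (28.9% and 28% of all genes). With mito, 4 were higher and 1 lower in Stiff+mito against Stiff (15.6% and 17.8% of all genes), and 5 were higher and 1 lower in Soft+mito against Soft (14.8% and 11.9% of all genes). Of 13 tested ADAM and ADAMTS proteases, 10 rose and 3 fell in Stiff-TW against Stiff (35.5% and 34.1% of all genes), and 8 rose and 2 fell in Soft-TW against Soft (28.9% and 28% of all genes). In Stiff against Soft 4 of these 13 rose and 5 fell (29.1% and 24.7% of all genes). The median log2 fold change of the ADAM and ADAMTS genes was 0.427 in Stiff-TW against Stiff, 0.245 in Soft-TW against Soft and -0.034 in Stiff against Soft, beside 0.009, -0.004 and 0.015 for all genes.

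The genes whose 6 group means lay nearest to those of a member were found by the root mean square difference of centred log2 CPM over 9890 tested genes, for the 4 members whose group means spanned at least 1 log2 unit. For Mmp9 these were Stab1 (0.15), Car12 (0.29) and Dhx58 (0.31), for Mmp10 H2ac18 (0.17), Tafa5 (0.20) and Gadd45b (0.22), for Mmp13 Mt2 (0.14), Hilpda (0.14) and Hk2 (0.14), and for Timp3 Nrg1 (0.13), Myo7a (0.13) and Slpi (0.13). The 6 group means share libraries and depth, and this is a description only.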

How the data were processed

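Poly(A) RNA of 18 libraries was sequenced as strand-specific (dUTP) paired ends on an Illumina instrument, per the labels' protocols, and the labels name the build mm10. The software for alignment and quantification and the annotation are not named in the labels or headers read here. Gene-level values deposited by the authors were estimated counts (10.9% not whole at a tolerance of 0.001) and TPM. They also deposited a normalized signal, per the file headers a normalized read count, which served only to check its scale. A further 44 columns of averages and the FPKM columns were not used. Positions and promoters are from RefSeq, GRCm38.p6.

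Rounded estimated counts went into edgeR 4.0.16 under R 4.3.3: filterByExpr, TMM scaling, and 1 quasi-likelihood model (robust) of the 18 libraries, with 11 comparisons. Each test was two-sided, with Benjamini-Hochberg adjustment over 12245 genes, and a gene was called at an adjusted p under 0.05. Each SE was approximated as the size of the log2 fold change over the root of its F. TPM ± SD are over 3 libraries. Counting error alone allows up to 3 counts where 0 were seen. Replicate libraries differed by more than counting error (chi-square per degree of freedom 1.18 to 2.17), and the common biological coefficient of variation was 0.0175, so small changes pass.

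The 9 members and the lists (3 of pathways, 5 of cell type markers) were chosen with earlier results of these data known. The rule named the 9 members, up to 3 genes per list and comparison with the smallest adjusted p and at least 5 CPM, and the 3 genes most like a member whose group means span at least 1 log2 unit. Of the list genes it takes, the text gives a selection, chosen after their values were seen. Alternatives were library totals, DESeq2 1.42.0, no filter, only the groups compared, a replicate block, each library left out in turn and, added after the data were seen, limma 3.58.1 on log2(TPM + 0.5).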

Additional observations from a re-analysis of the deposited data

Results flagged for a closer look

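Each of these 10 values is a difference between the effect of an addition on the stiff matrix and its effect on the soft matrix (log2, stiff minus soft), and each passed edgeR's interaction test with an adjusted p under 0.05. For mito, Timp3 differed by 0.5478, with Stiff+mito above Stiff and Soft+mito below Soft. Mmp3 differed by 0.8689, Mmp9 by 0.4673 and Mmp2 by 0.181, and these 3 calls were lost without single libraries. For TW, Mmp10 differed by 1.3632 and Mmp3 by 1.0052. Timp1 differed by 0.332. Timp2 differed by 0.153, being called lower with TW on the soft matrix (-0.1852) and not called on the stiff matrix (-0.0322). Mmp13 differed by -0.7356 and Timp3 by -0.2998, the effect of TW being smaller on the stiff matrix. The effects of mito and TW on a matrix share the libraries of that matrix without an addition.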

How the results depend on the processing

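Over 99 gene results and 24 settings, 1295 values were recomputed, and 1163 kept both direction and side of the threshold, while 132 values in 42 results did not. The cause of each change was not tested. The number of members changed in Soft+mito against Soft was 3, and 1 with library totals, without the filter on low counts, with only the groups compared and with limma on log2(TPM + 0.5), and 1 to 3 with each library left out in turn. That of the interaction of mito and matrix was 4, and 1 with DESeq2, which gave Mmp3 no adjusted p there. It was 2 to 4 with each library left out. The number rose to 5 with only the groups compared and to 6 with library totals and with limma on TPM. Mmp10 was gained in each of these settings, and Mmp14 with library totals and limma. In sign, small changes turned. With library totals these were Timp2 in Stiff against Soft (-0.0209), Mmp2 in Soft+mito against Soft (-0.0257), Timp1 in Soft-TW against Soft (-0.035), Timp3 in Stiff-TW against Stiff (-0.0186), Timp2 in Stiff+mito against Soft+mito (-0.0046), Mmp14 in Stiff+mito against Stiff-TW (0.0104) and Timp2 in the interaction of mito (0.0162). With limma on TPM, added after the data were seen, they were Timp2 in Stiff against Soft (-0.0691), Timp2 (-0.0472), Mmp14 (-0.0358), Mmp10 (-0.0537) and Mmp2 (-0.0911) in Soft+mito against Soft, Timp1 in Stiff+mito against Stiff (-0.0284), Timp1 (-0.0848) and Mmp14 (-0.006) in Soft-TW against Soft, Timp3 in Stiff-TW against Stiff (-0.0096), Mmp14 in Stiff+mito against Stiff-TW (0.0024), Timp2 in the interaction of mito (0.0818) and Mmp2 in that of TW (0.0143). Without the filter they were Mmp2 in Soft+mito against Soft (-0.0004) and Timp2 in Stiff+mito against Soft+mito (-0.001). With only the groups compared they were Mmp2 in Soft+mito against Soft (-0.0069), Timp2 in Stiff+mito against Soft+mito (-0.0017) and Timp2 in the interaction of mito (0.0003), and with DESeq2 Timp2 in Stiff+mito against Soft+mito (-0.0059). With each library left out, the ranges that crossed 0 were, in Soft+mito against Soft, Mmp13 -0.0758 to 0.0531, Mmp9 -0.2192 to 0.0644 and Mmp2 -0.0114 to 0.0238, in Stiff+mito against Stiff Timp1 -0.0335 to 0.0753, in Soft-TW against Soft Timp1 -0.0417 to 0.0823 and Mmp3 -0.0613 to 0.047, in Stiff+mito against Soft+mito Mmp13 -0.0131 to 0.0634 and Timp2 -0.0146 to 0.0164, and in the interaction of TW Mmp9 -0.0076 to 0.1234.

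Pairing of libraries by replicate number was not clear. Deviations of same-numbered libraries correlated between -0.13 and 0.197 (median 0.006) over 45 pairs, and 18 correlated best with their own number. Between Stiff+mito and Stiff-TW every number did so (0.197, 0.106 and 0.07), and between Stiff and Soft none did (-0.03, -0.06 and -0.014). With the replicate block the count of changed genes in Stiff against Soft was 6634 against 6588, and no member call changed. The low counts of Mmp3 limit its precision.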

Other observations

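The transcript table gave 1 transcript for 7 of the 9 genes. Mmp2 had 2 and Timp1 had 4. Of the 3 curated Timp1 transcripts, the most abundant held 51.7% to 73.3% of the gene's TPM over the 18 libraries, the next 23.3% to 42.0% and the last at most 3.66%. The predicted one held at most 7.99%.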
